A study of Mus musculus with 6 samples.

Results

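The clock output genes that are described here are the 10 genes Per1, Per2, Per3, Dbp, Tef, Hlf, Nr1d1, Nr1d2, Ciart and Bhlhe41, all of which were found by symbol among the 22000 gene symbols of the count table. They were chosen by their place in the circadian clock and with the measured difference between ELS and control mice already known, that of Per2 above all, so every difference between the groups in these genes is given as a description and not as a test. RNA-seq was carried out on prefrontal cortex (PFC) of wild-type male C57BL/6N mice at 9 weeks of age, with 1 library per mouse, 3 control mice and 3 mice exposed to early life stress (ELS). ELS mice were housed alone under a filter cap from weaning, control mice shared a cage without a cap, both groups came from litters of the same mother and went through behavioral tests before dissection, and the housing was kept until dissection. Each mouse was sampled once, and the sources used here give neither the clock time of dissection nor whether it was the same for all 6 mice. The values therefore hold no rhythm, amplitude or phase, and a difference in dissection time between the groups cannot be told apart from ELS. The name Per phase therefore rests on what is known of these genes and could not be checked in these samples.

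In the circadian clock, the transcription factors CLOCK and BMAL1 (encoded by Arntl), or NPAS2 in place of CLOCK, bind E-boxes and switch on Per, Cry and a set of output genes, and PER and CRY proteins then return to the nucleus and block that activity. DBP, TEF and HLF are PAR bZIP transcription factors that act through D-boxes, and NR1D1 and NR1D2 (REV-ERB alpha and beta) are heme-binding nuclear receptors that repress Arntl through ROR elements. CIART (CHRONO) and BHLHE41 (DEC2) are further repressors of CLOCK and BMAL1. Outside the suprachiasmatic nucleus, Per1 and Per2 also respond to glucocorticoids and to neuronal activity.

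To show the promoter sequence behind this grouping, the E-box CACGTG, the related E'-box CACGTT, the D-box (TTATGTAA, TTACGTAA or TTATGCAA), the ROR element (TAGGTCA or TGGGTCA) and the CRE (TGACGTCA) were searched on both strands in RefSeq promoter windows of GRCm38.p6, which run from 250 bases before to 50 bases after a gene's start. Of the 10 genes, 9 had a window (11 windows in all), and Per2 had no entry. The E-box was found in 5 of the 11 windows, against 7.15% of all 32851 windows. They belong to 4 of the 9 genes, namely Per1, Tef (both starts), Ciart and Bhlhe41. The D-box was found in 2 windows, those of Per1 and Per3, against 1.78% of all windows. The 10 genes were grouped as Per genes and E-box or D-box output, so shares above these backgrounds are not independent of that choice. The E'-box was found in the window of Nr1d1 (4.68% of all windows), the CRE in that of Hlf (1.79%), and the ROR element in none of the 11 (6.45%). No match overlapped a match to another motif. The windows of Dbp and Nr1d2 held none of these letters, which says nothing of sites elsewhere in these genes. Among genes known to run in the opposite phase, the ROR element was found for Arntl and Nfil3, and both the E-box and the E'-box for Cry1. The windows of Clock and Npas2 and that of the first Arntl start held no match to any of these motifs. Stretches around the E-boxes, the E'-box and the D-boxes (for Tef, that of the second start only) are printed because these are the clock motifs found near the starts of the genes described here. They lie outside annotated exons, are written 5′ to 3′ on the gene's strand, and capitals mark the matches.
Ciart (chr3:95882252-95882384, minus strand): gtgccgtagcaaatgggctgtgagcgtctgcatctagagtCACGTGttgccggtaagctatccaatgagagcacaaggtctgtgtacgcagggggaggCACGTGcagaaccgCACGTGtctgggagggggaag
Bhlhe41 (chr6:145865559-145865613, minus strand): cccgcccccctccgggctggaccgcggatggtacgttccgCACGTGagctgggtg
Tef, second start (chr15:81811236-81811321, plus strand): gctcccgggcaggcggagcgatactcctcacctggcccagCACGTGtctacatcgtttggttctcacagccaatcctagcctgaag
Per1 (chr11:69098743-69098947, plus strand): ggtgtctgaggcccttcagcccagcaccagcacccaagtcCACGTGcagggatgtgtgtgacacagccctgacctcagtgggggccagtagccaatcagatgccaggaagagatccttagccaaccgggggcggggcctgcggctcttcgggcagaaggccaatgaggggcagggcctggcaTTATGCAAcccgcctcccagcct
Per3 (chr4:151044776-151044910, minus strand): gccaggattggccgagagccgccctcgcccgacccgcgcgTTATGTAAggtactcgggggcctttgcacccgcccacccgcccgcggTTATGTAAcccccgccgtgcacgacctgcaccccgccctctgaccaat
Nr1d1 (chr11:98775378-98775445, minus strand): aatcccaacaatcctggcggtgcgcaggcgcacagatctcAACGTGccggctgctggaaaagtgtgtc
Ciart held 3 E-boxes, which began 116, 58 and 44 bases before the start. The Per1 stretch holds an E-box at -166 and a D-box at -24, and that of Per3 a pair of D-boxes of the same letters at -205 and -158. The Per1 start and the second Tef start used here lie inside the genes as GENCODE M21 draws them, between exons of longer transcripts.

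**Figure D1:**
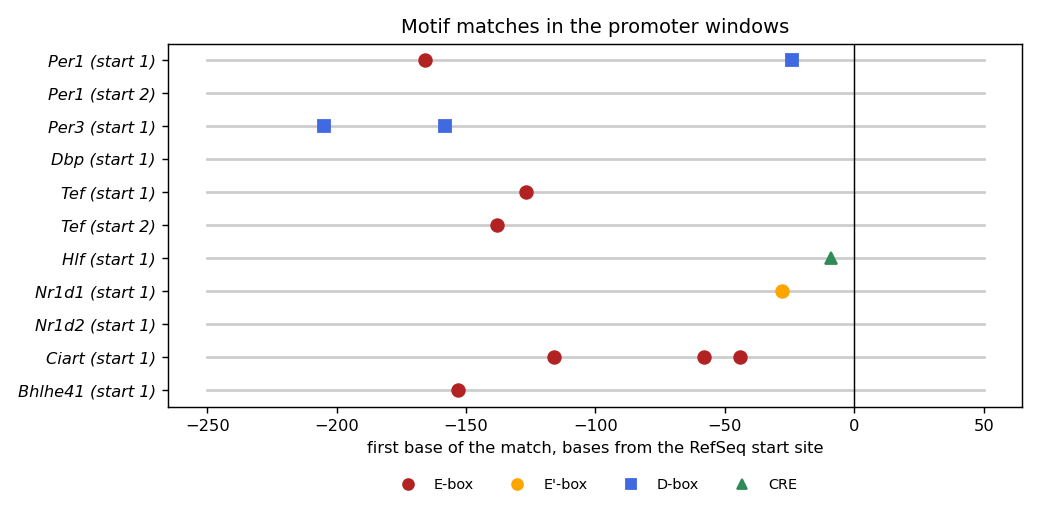
Motif matches in the 11 RefSeq promoter windows of 9 clock output genes; the x axis gives the first base of each match in bases from the RefSeq start site, each row is 1 annotated start, and colors mark the motif. E-boxes lie in the windows of Per1, Tef, Ciart and Bhlhe41, with 3 of them for Ciart, and D-boxes in those of Per1 and Per3.

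All 10 genes were well counted. The lowest count of any of them in a mouse was 309 (Ciart in ELS mouse 1), where counting error alone is 5.69%, and the highest lowest-count was 11645 (Tef), where it is 0.927%. Total counts per mouse ran from 28405795 to 35241743, with every ELS library deeper than every control library. Levels between genes were compared as CPM per kb of annotated exon, with CPM scaled by the TMM factors. Tef stood highest at 51.0 ± 1.30 CPM per kb (SD, n = 6 mice), above every other member in all 6 mice. Nr1d1 (38.6 ± 4.81), Hlf (38.3 ± 2.82) and Nr1d2 (37.0 ± 3.52) followed with overlapping ranges, so their order is not set beyond their spread. Dbp, at 31.1 ± 2.80 CPM per kb, was below Nr1d2 in 6 of 6 mice although their ranges overlapped. Per1 came next at 16.7 ± 2.7 CPM per kb, separated from both neighbors in every mouse. Bhlhe41 (6.36 ± 0.444), Ciart (6.21 ± 1.16) and Per2 (5.16 ± 1.46) overlapped in range. Bhlhe41 was above Ciart in only 1 of 6 mice, ELS mouse 1, at 6.11 against 4.10 CPM per kb. Per3 was lowest at 3.70 ± 0.461 CPM per kb, 13.8-fold below Tef. The order of Per2 and Per3 was not the same in every mouse: Per2 was above Per3 in 5 of 6 mice and below it in ELS mouse 3, at 3.16 against 3.64 CPM per kb.

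**Figure D2:**
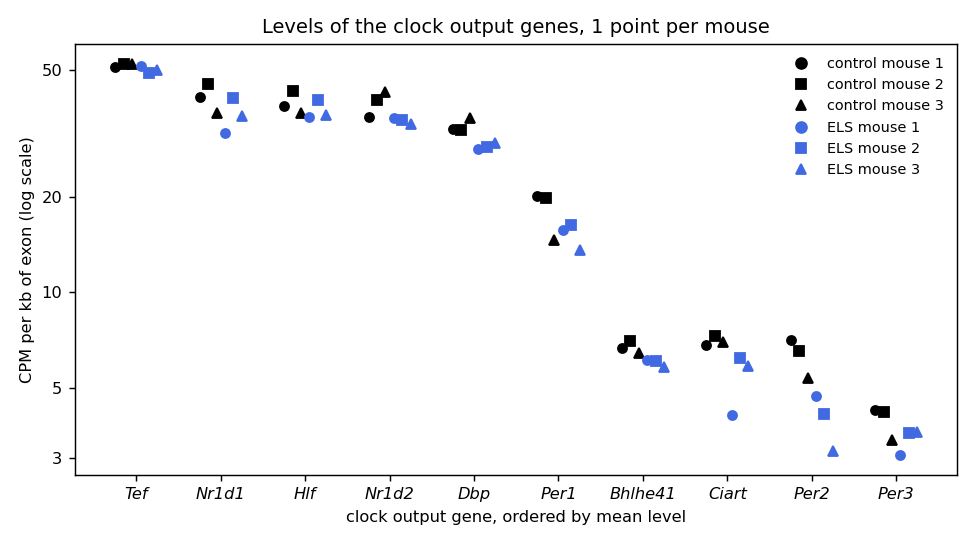
Levels of the 10 clock output genes in CPM per kb of exon on a log scale, 1 point per mouse, control mice in black and ELS mice in blue, genes ordered by their mean. Tef lies between 49.1 and 52.4 in all 6 mice, and Per2 and Per3 share the bottom of the plot.

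The comparison of ELS with control mice asks which transcripts of the PFC differ after social isolation in early life. Every one of the 10 genes had a log2 fold change below 0 in edgeR's fit, from -0.66 for Per2 to -0.05 for Tef, with a median of -0.20, whereas the median over the 13185 genes tested was -0.005 and 52.5% of them were below 0. Per2 and Ciart lay beyond -0.3, which 2.06% of all genes did, and the next inside that limit were Per1 at -0.26 and Dbp at -0.22. The highest ELS mouse lay below the lowest control mouse in 5 of the 10 genes, Per2, Dbp, Nr1d2, Ciart and Bhlhe41, against 4.47% of all genes tested. None of the 10 was called by edgeR's quasi-likelihood test, for which a gene needed an adjusted p under 0.05 together with a log2 fold change beyond 0.3 either way (0.0152% of all genes were). DESeq2 called 1, Per2 (0.137% of all genes called), and at an unadjusted p under 0.05 the edgeR test held 6 of the 10, all lower in ELS mice (2.34% of all genes). Because these genes were taken up with this contrast known, nothing is read from these counts. In whole tissue, fewer cells that express a gene and less RNA per cell cannot be told apart.

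**Figure D3:**
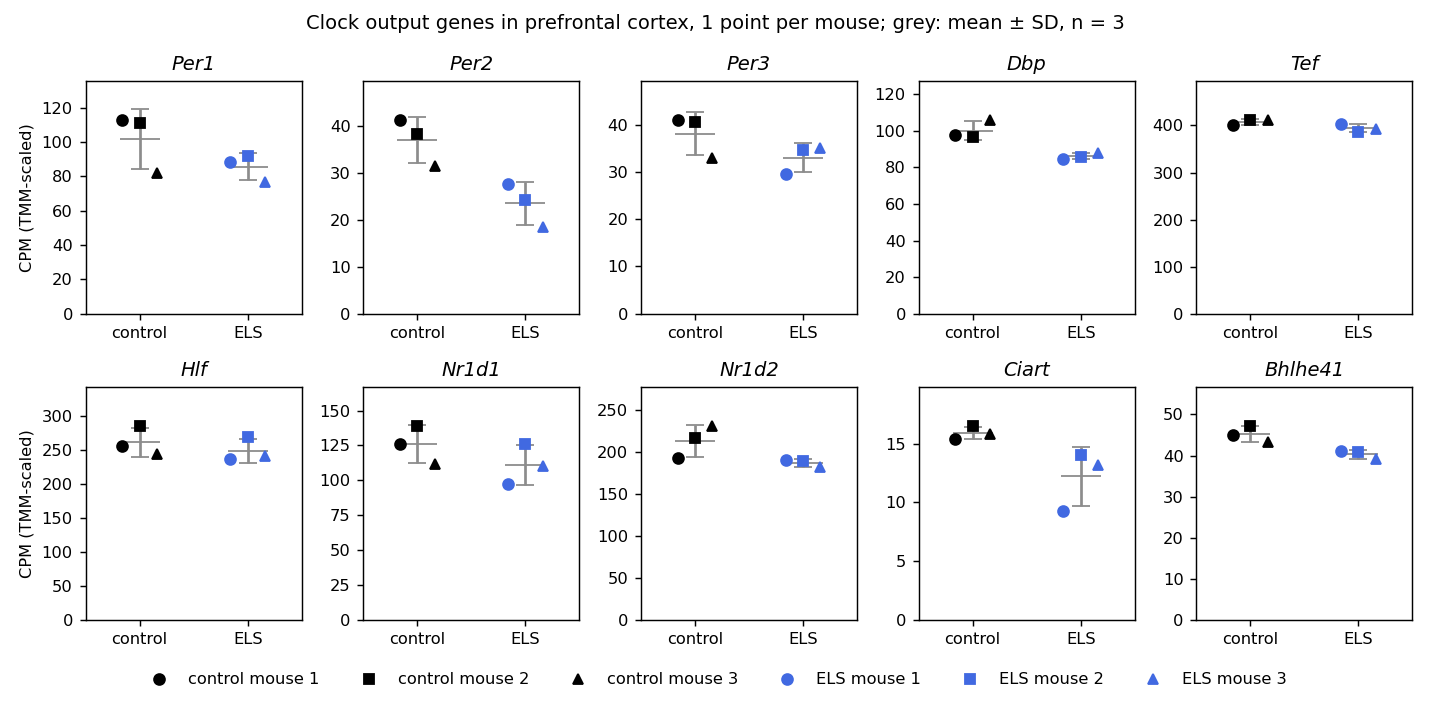
TMM-scaled CPM of the 10 clock output genes in each of 3 control mice (black) and 3 ELS mice (blue), with the mean and SD in grey; each panel starts at 0. The groups are apart in Per2, Dbp, Nr1d2, Ciart and Bhlhe41 and overlap in the other 5.

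Per2 encodes the period protein most closely tied to the pace of the clock. In GRCm38, the build of all gene positions given here, it spans 91415982 to 91459324 of chromosome 1 on the minus strand. Its level was 41.3, 38.2 and 31.5 CPM in control mice 1 to 3 and 27.6, 24.3 and 18.5 CPM in ELS mice 1 to 3. The lowest control mouse was above the highest ELS mouse, and control mouse 3 and ELS mouse 3 were the lowest of their groups. Per2 was 36.6% lower in ELS mice, a log2 fold change of -0.66 with a standard error of 0.134, the largest of the 10 genes. Its ratio to Per1 within a mouse was 0.364, 0.343 and 0.385 in control mice and 0.313, 0.264 and 0.241 in ELS mice, and the groups were apart. Its ratio to Per3 was 1.01, 0.944 and 0.958 in control mice and 0.935, 0.703 and 0.529 in ELS mice, apart only by the narrow gap between control mouse 2 and ELS mouse 1. Its ratio to Dbp, at 0.421, 0.396 and 0.297 in control mice and 0.326, 0.283 and 0.210 in ELS mice, overlapped between the groups.

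Per1, a period gene that is quickly induced by light and by glucocorticoids, lies on chromosome 11 from 69095217 to 69109960 (plus strand) and carries the E-box and the D-box printed above. It had 113, 111 and 82.0 CPM in control mice and 88.3, 91.9 and 76.7 CPM in ELS mice. Control mouse 3 lay among the ELS mice and the groups overlapped. The log2 fold change was -0.26 (standard error 0.113), and leaving out single mice moved it between -0.39 (without control mouse 3) and -0.17 (without control mouse 1).

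Per3, on chromosome 4 from 151003652 to 151044665 (minus strand), encodes the period protein that is least needed for the rhythm itself. Its levels were 41.0, 40.5 and 32.9 CPM in control mice and 29.5, 34.6 and 35 CPM in ELS mice. The groups overlapped through control mouse 3, and the log2 fold change was -0.21 (standard error 0.0985), between -0.30 without that mouse and -0.14 without ELS mouse 1. Unlike Per1 and Per2, Per3 was highest among the ELS mice in ELS mouse 3 and lowest in ELS mouse 1.

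Among the PAR bZIP genes, Dbp showed separate groups and the other pair did not. Dbp, whose transcript has a high rhythm in most tissues, lies on chromosome 7 from 45705088 to 45710203 (plus strand). It had 97.9, 96.6 and 106 CPM in control mice and 84.7, 85.8 and 88.1 CPM in ELS mice. The log2 fold change was -0.22 with a standard error of 0.0658, and the ELS mice lay closer to each other than the control mice did. Exons of Sphk2 on the opposite strand overlap 18% of the Dbp exons, and the strand setting of the counting is not given in the sources used here. Sphk2 itself had 20.6 ± 2.16 CPM (SD, n = 3) in control mice, and in ELS mice 20.7 ± 0.624 CPM.

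Tef, on chromosome 15 from 81802421 to 81826863 (plus strand), had 401, 412 and 412 CPM in control mice and 404, 386 and 393 CPM in ELS mice, a log2 fold change of -0.05 with a standard error of 0.0604. Hlf, on chromosome 11 from 90336536 to 90390895 (minus strand), had 257, 286 and 244 CPM in control mice and 237, 269 and 241 CPM in ELS mice. Its log2 fold change was -0.08 with a standard error of 0.0778, and leaving out single mice moved it between -0.14 (without ELS mouse 2) and -0.01 (without control mouse 2). Both genes had groups that overlapped, and for both the difference was about the size of its standard error. A noncoding antisense gene, Gm17597, overlaps 2.45% of the Tef exons.

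The REV-ERB genes differed in whether the groups were apart. Nr1d2, on chromosome 14 from 18204054 to 18239127 (minus strand), had 193, 217 and 231 CPM in control mice and 191, 189 and 182 CPM in ELS mice. The groups were apart by a narrow margin, that between control mouse 1 and ELS mouse 1, and the log2 fold change was -0.19 (standard error 0.0750). With scaling by library totals only, ELS mouse 1 was above control mouse 1 and the Nr1d2 groups overlapped. Nr1d1, on chromosome 11 from 98767932 to 98775333 (minus strand), had 126, 139 and 112 CPM in control mice and 97.5, 126 and 110 CPM in ELS mice. These groups overlapped, with a log2 fold change of -0.18 (standard error 0.0990). It was -0.28 without ELS mouse 2, and -0.10 without ELS mouse 1 or without control mouse 2. Nr1d1 overlaps exons of Thra on the opposite strand over 8.55% of its own exons. Thra is the more abundant of that pair, at 640 ± 30.6 CPM (SD, n = 3) in control mice, and 656 ± 2.17 CPM in the ELS group.

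Ciart and Bhlhe41, the repressors outside the Per and Nr1d genes, both had groups that did not overlap. Ciart lies on chromosome 3 from 95878503 to 95882251 (minus strand), and its promoter window holds the 3 E-boxes shown above. It had 15.4, 16.5 and 15.8 CPM in control mice and 9.27, 14.0 and 13.2 CPM in ELS mice. The log2 fold change of -0.38 (standard error 0.135) leaned on ELS mouse 1 and was -0.22 without it. Bhlhe41, known for its part in sleep duration, lies on chromosome 6 from 145858243 to 145865558 (minus strand). It had 44.9, 47.2 and 43.4 CPM in control mice and 41.1, 40.8 and 39.2 CPM in ELS mice, a log2 fold change of -0.16 with a standard error of 0.0688. A transcribed region on the opposite strand, Gm43909, overlaps 19% of the Bhlhe41 exons.

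How the mice of a group varied among themselves does not depend on the contrast between the groups. The SD of log2 CPM within groups was largest for Per2 (0.252), Ciart (0.231) and Per1 (0.209), at percentiles 90.8, 88.6 and 85.3 of the genes tested. It was smallest for Tef (0.0275), Bhlhe41 (0.0506) and Dbp (0.0555), at percentiles 1.3, 9.0 and 11.6. The median over the 10 genes was 0.133, against 0.113 over all genes tested. Within the control group, the period genes had the same order of mice: Per1, Per2 and Per3 were all highest in control mouse 1 and lowest in control mouse 3, whose deviations from the group mean of log2 CPM were -0.303, -0.221 and -0.204. In that mouse Dbp and Nr1d2 were instead the highest of the 3. In all, control mouse 3 was lowest of its group in 6 of the 10 genes, and it was lowest in 39.4% of all genes tested. Within the ELS group the period genes parted, since ELS mouse 3 was lowest for Per1 and Per2 while ELS mouse 1 was lowest for Per3, Nr1d1 and Ciart. Nr1d1 and Hlf had the same order of mice in each group, highest in mouse 2 of both.

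**Figure D4:**
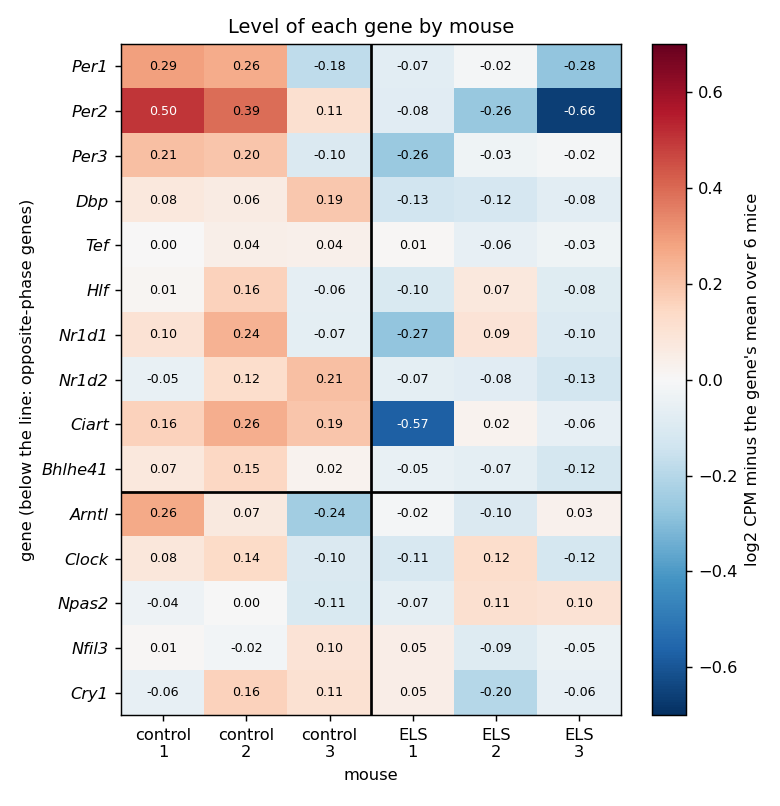
Log2 CPM of each gene minus its mean over the 6 mice, by mouse, with the 10 clock output genes above the line and 5 genes known to run in the opposite phase below it; red is above and blue below the gene's mean. Per2 runs from 0.50 in control mouse 1 to -0.66 in ELS mouse 3, and Ciart is lowest at -0.57 in ELS mouse 1.

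The genes of the opposite phase, which the REV-ERB proteins repress directly or which peak when Per genes are low, gave a reference within the same mice. Arntl had 34.8 ± 6.05 CPM (SD, n = 3 for each of these genes) in control mice against 33.1 ± 1.5 CPM after ELS, and Clock had 131 ± 11 and 124 ± 12.3 CPM. Npas2, which can stand in for Clock in the forebrain, had 44.2 ± 1.60 and 47.4 ± 3.22 CPM, and Nfil3, a repressor at D-boxes, 8.97 ± 0.378 and 8.62 ± 0.424 CPM. Cry1, which encodes a repressor of CLOCK and BMAL1, had 15.7 ± 1.2 and 14.3 ± 1.2 CPM. In none of these 5 genes were the groups apart, and their log2 fold changes ran from -0.14 for Cry1 to 0.10 for Npas2. The median over the 6 listed genes of this phase was -0.07.

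Of 25 companion clock genes listed by role, the 6 of the opposite phase among them, 24 were in the table and all 24 were tested. None passed the quasi-likelihood test of edgeR in either direction, 1 had an unadjusted p under 0.05 (4.23% of all genes tested did, in either direction), and DESeq2 called none. A count of 1 in 24 is no more than that background. In log2 fold change 13 were below 0 and 11 above, with a median of -0.006. The gene with the unadjusted p was Bhlhe40 (DEC1), the paralog of Bhlhe41 and a repressor at E-boxes. It had 170, 153 and 134 CPM in control mice and 121, 133 and 112 CPM in ELS mice, so the groups were just apart. The groups were also apart in Btrc, a ubiquitin ligase gene that was lower in ELS mice by a log2 fold change of -0.06, and, with ELS mice higher, in Tipin, a replication fork gene. Tipin had 14.0, 17.0 and 16.0 CPM in control mice and 17.8, 17.2 and 18.2 CPM in ELS mice, a log2 fold change of 0.18. Over all genes tested, 4.47% were apart with ELS mice lower and 3.81% with ELS mice higher. The quasi-likelihood test of edgeR gave Bhlhe40 a log2 fold change of -0.32 with a standard error of 0.0931 and an adjusted p of 0.861. Without control mouse 3, Bhlhe40 passed this test, as did Per1 and Per2 among the clock output genes, in a setting where 0.219% of all genes were called. Cry2, the partner of PER proteins, had a log2 fold change of -0.10 (standard error 0.0823), and the kinase genes Csnk1d and Csnk1e, whose products phosphorylate PER, had 0.02 and -0.11 (standard errors 0.0624 and 0.0822).

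**Figure D5:**
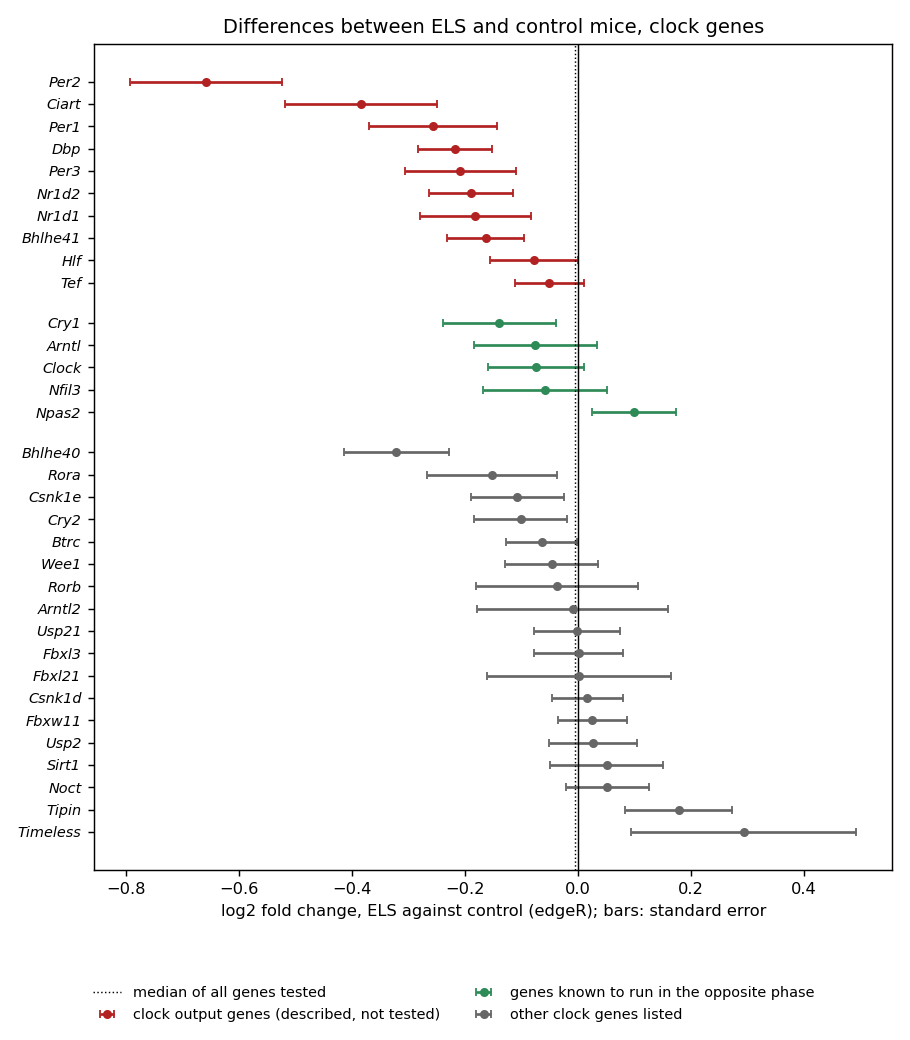
Log2 fold change of ELS against control mice with its standard error for the 10 clock output genes (red, described without a test), 5 genes of the opposite phase (green) and the other 18 companion clock genes (grey); the dotted line is the median of all genes tested. All red points lie below 0, and the green and grey points lie on both sides of it.

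The 5 genes outside the group whose levels over the 6 mice were nearest to the mean profile of the 10, by root mean square distance of centred log2 CPM, were Arhgap39 (0.0274), Gdpd5 (0.0293), Letm2 (0.0330), Aasdh (0.0352) and Frmd5 (0.0381). The mean profile itself had a root mean square of 0.134. It lay between 0.035 and 0.187 in control mice and between -0.161 and -0.044 in ELS mice. Genes near it are therefore lower in ELS mice by construction. Of the members, Bhlhe41 lay nearest to the mean profile at 0.0559 and Per2 farthest at 0.285.

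All 7 cortical markers listed, Slc17a7, Tbr1 and Fezf2 among them, were above 1 CPM in every mouse. All 9 striatal markers found and all 7 oligodendrocyte markers were above it too, so this level does not check the tissue label. Of the markers of the suprachiasmatic nucleus, the site of the master clock, 1 of 6 was above 1 CPM in every mouse and Nms was at 0 in all. The summed level of 9 striatal markers ran from 253 to 488 CPM in control mice and from 299 to 466 CPM in ELS mice, and was highest in control mouse 3 and ELS mouse 1. In these mice Nr1d1 and Hlf were the lowest of their group, and so was Per3, while Nr1d2 was the highest of its group in both. Over all genes tested, control mouse 3 was lowest of its group in 39.4% and ELS mouse 1 in 36.3%. The mean log2 CPM of the 9 striatal markers was used as a covariate. With this covariate, the log2 fold change was -0.63 for Per2, -0.34 for Ciart, -0.18 for Per1, -0.13 for Per3, -0.11 for Nr1d1, -0.15 for Bhlhe41 and -0.04 for Hlf, all nearer to 0 than without it. It was farther from 0 for Dbp (-0.23), Nr1d2 (-0.22) and Tef (-0.06). The same pair of mice was highest of its group in other lists. The 7 oligodendrocyte markers summed to 6033, 6169 and 7951 CPM in control mice 1 to 3 and 7039, 6091 and 6663 CPM in ELS mice 1 to 3. The 5 blood markers (85.2 CPM in control mouse 3 and 79.8 CPM in ELS mouse 1) and the 6 suprachiasmatic markers (87.0 and 82.2 CPM) were also highest in these mice, and the sums of the cortical and the neuronal markers were lowest in them. Since only 1 of the 6 suprachiasmatic markers was above 1 CPM in every mouse, their sum is no measure of suprachiasmatic tissue. The groups overlapped in all of these lists, and the summed levels of 7 astrocyte, 7 microglial and 6 endothelial markers also overlapped between the groups. The part of these other cell types in the differences was not tested.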

How the data were processed

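RNA-seq libraries were made from PFC of 3 control and 3 ELS mice. The authors trimmed the reads, aligned them to mm10 with STAR, used HTSeq to count the reads that mapped to a single place, and deposited raw counts for each gene symbol, without normalization or pooling. The submitters' processing notes name STAR 2.7.1a and HTSeq 0.9.1, and the paper's methods another STAR release. The annotation and strand setting are not given in the sources used here. Columns named SI (social isolation) were taken as the ELS mice of the same number.

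The main test was that of edgeR 4.0.16 under R 4.3.3, and DESeq2 1.42.0 and limma 3.58.1 served as alternatives. A gene was kept if all mice of either group reached 1 CPM (13185 of 22000), TMM factors (0.992 to 1.02) were applied, and quasi-likelihood models that held nothing but the condition were fitted across all of them, with Benjamini-Hochberg adjustment. Calls needed an adjusted p under 0.05 together with a log2 fold change beyond 0.3 either way. Standard errors were taken from the F statistic. CPM values are TMM-scaled. The code was tested on simulated counts. Libraries of a group differed by more than sampling noise (chi-square per degree of freedom of at least 6.70). This value was 21.4 and 20.1 for control mouse 3 against control mice 1 and 2, and 7.2 between control mice 1 and 2. In the ELS group it ran from 6.70 to 13.6. The labels give separate mice, and 3 per group limit the precision.

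The 10 genes and all lists were chosen with earlier results of these data known. Named genes were the 10, the opposite-phase genes, companions past the threshold, the 5 genes nearest in profile and genes sharing exons with a member. Bhlhe40, Btrc, Tipin, Cry2, Csnk1d and Csnk1e fell outside that rule and were named after their values were seen. Coordinates and exon lengths are from GENCODE M21 on GRCm38 (mm10), where 89.2% of symbols were found, and promoters are from RefSeq on GRCm38.p6. Some listed genes that enter the counts and medians are not reported here by name. Alternatives were other tests, scalings, filters and thresholds, a replicate block, a striatal covariate, and leaving out each mouse.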

Additional observations from a re-analysis of the deposited data

How the results depend on the processing

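The 10 log2 fold changes were below 0 in all 160 values from 16 alternative settings, and none moved by more than the SD between mice of a group; the settings share these mice, and where groups do not overlap a mouse left out could hardly turn the direction. The median of the 10 ran from -0.231 to -0.169 with each mouse left out. The groups were apart in 5 of the 10 genes, with 8.28% of all genes apart in either direction, and in 4 with upper-quartile factors or library totals only (8.40%). Without control mouse 3 they were apart in 8 (29.5% of all genes), and without any other mouse in 5 to 7 (14.8% to 17.6%). The number of genes called over the whole table was 2. It was 18 with DESeq2, 28 by likelihood ratio in edgeR, 4 once every gene with a read was tested, and 30 with the striatal covariate, and it ran from 1 to 29 with each mouse left out, the 29 without control mouse 3. Per2 was among the calls of DESeq2, the likelihood ratio test, the striatal covariate and the fit without control mouse 3. The count of companion clock genes called was 0 in all settings but 1, and ran from 0 to 1 with each mouse left out. The median log2 fold change of the opposite-phase genes was -0.066, moved to -0.014 with the striatal covariate, and ran from -0.074 to -0.003 with each mouse left out, nearest 0 without control mouse 1. The cause of these shifts was not tested.

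Under a replicate block on the mouse number, the call count was 7, with Per2 among them. The deviations of same-numbered mice from their group means correlated at -0.164, 0.258 and -0.036 for numbers 1 to 3, and only the mice numbered 2 correlated best with their own number. With 3 mice per group, these correlations cannot tell whether the numbers pair mice. The sources used here do not say whether they do. Each mouse was sampled once, and 3 mice per group set the precision at this depth, not the counts.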
